A study of Mus musculus with 6 samples.

Results

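The proteasome genes of mouse were examined in SRC-1 knockout and control MC38 cells. They were taken as every gene of the table whose symbol is Psm, followed by 1 letter from a to g and a number, with an optional closing letter. This gave 48 of 16583 genes, of which 47 had enough counts to be tested. MC38 is a mouse colorectal cancer line, and the values came from 3 libraries of cells with SRC-1 (gene Ncoa1, a nuclear receptor coactivator) knocked out and 3 libraries of control cells. Both groups had been exposed for 24 hours to interferon gamma (100 ng per mL), so the values describe stimulated cells, and no untreated cells were analysed here. Groups follow the titles, which give KOSRC-1 for all 3 knockouts, although the genotype field has KOSRC-2 for knockout 2 and KOSRC-3 for knockout 3. The labels do not say how the knockout was made, whether it is 1 clone, or whether replicates came from separate cultures. If they did not, the spread behind the p-values may be technical, and they cover that spread alone. The study asked how SRC-1 acts on PD-L1, both at the level of its transcription and at that of its protein's stability.

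The proteasome is the protease that degrades proteins tagged with ubiquitin. Its 20S core is a barrel of alpha subunits, which form the gate, and beta subunits, some of which carry the active sites. The 19S particle sits on the barrel's end, binds the tagged protein, removes the ubiquitin and unfolds the chain with a ring of ATPases. Interferon gamma induces 3 alternative catalytic subunits, Psmb8, Psmb9 and Psmb10, which take the places of Psmb5, Psmb6 and Psmb7 in newly built cores, together with the PA28 activator made of Psme1 and Psme2. The resulting immunoproteasome is known for making peptides that fit MHC class I molecules.

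Levels are given as CPM (TMM-scaled counts per library size, comparable between libraries for 1 gene) and as TPM (abundances scaled by transcript length as well, used to set genes against each other). Fold changes are knockout over control on the log2 scale of edgeR's fit, with standard error (SE) and a p adjusted by Benjamini-Hochberg over all 11656 genes tested. A gene is said to have risen or fallen when that adjusted p was under 0.05. The libraries held 16329459 to 17207625 expected counts. The tested proteasome genes had 97.15 to 12678 counts in each library, and 166 or more without Psme2b. They made up 0.831, 1.02 and 0.858% of all counts in knockouts 1, 2 and 3, against 0.965, 0.972 and 0.953% in controls 1, 2 and 3, with 95% Wilson intervals of at most 0.00475 percentage points to either side, which cover counting error only.

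Knockout 2 stood apart from the other knockouts. Its log CPM correlated with those of knockouts 1 and 3 at 0.978 and 0.981, while knockouts 1 and 3 correlated at 0.996 and the controls at 0.994 to 0.995. Calls among the members are therefore also given without knockout 2, and after removal of each library's trend over transcript length and GC content. TPM ratios between members were not computed with these trends removed. Ncoa1 itself stood at 16.7, 10.1 and 16.1 CPM in knockouts 1, 2 and 3, against 18.2, 18.5 and 18 CPM in controls 1, 2 and 3. Its mRNA was lower in every knockout library but was not called (log2 fold change -0.35, adjusted p = 0.179), so "knockout" refers to the label. By edgeR, Ncoa1 was not called without knockout 2 either (-0.15, adjusted p = 0.108). With the trends removed it was called lower (-0.45, adjusted p = 0.00667). Of the 7 colon epithelial markers in the table, 0 averaged 1 CPM or more over the 6 libraries, with a summed level of 0.703 to 1.02 CPM in knockouts and 1.11 to 1.43 CPM in controls. Of the 5 leukocyte and 3 endothelial markers, 0 averaged 1 CPM or more either, and none of these markers was at 0 in every library. The leukocyte markers summed to 0.303 to 0.359 CPM in knockouts and 0.875 to 1.36 CPM in controls, and the endothelial ones to 0.182 to 0.598 CPM in knockouts and 0.408 to 0.592 CPM in controls. Of the 5 fibroblast markers, 3 did, and the summed level of the 5 was 174 to 210 CPM in knockouts, against 466 to 495 CPM in controls. These did not move together: Dcn (104 CPM in knockouts and 388 CPM in controls, mean of 3 each) and Pdgfrb (1.19 CPM in knockouts and 10.2 CPM in controls) fell, Pdgfra was not called (91.6 CPM in knockouts and 83.9 CPM in controls), and Col1a1 and Col1a2 were near 0. In bulk libraries fewer cells of a type and less RNA per cell cannot be told apart, and the part of these marker differences in the proteasome results was not tested.

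The immunosubunits and PA28 did not pass the test in either direction. By edgeR 0 of the 5 were called, with 0 at an unadjusted p under 0.05, and DESeq2 and limma on log2(TPM + 1) also called 0. Of all genes tested, edgeR called 35.7% (17.1% higher and 18.5% lower), DESeq2 38.4% and limma 27.5%. An unadjusted p under 0.05 was found in 5395 of 11656 genes by edgeR and in 5356 by DESeq2. These are the background for all such counts given below. The log2 fold changes of the 5 ran between -0.15 and 0.08, with a median of -0.11, against a median of 0.02 over all tested genes. Psmb8 (LMP7; gene 16913, chromosome 17, 34198195 to 34201454), which replaces Psmb5, stood at 498, 768 and 545 CPM in knockouts 1, 2 and 3, against 647, 706 and 653 CPM in controls 1, 2 and 3. Knockouts 1 and 3 lay below every control and knockout 2 above every control, so the groups overlapped. The log2 fold change was -0.15 (SE 0.16, 95% interval -0.53 to 0.23, adjusted p = 0.505 by edgeR).

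Psmb9 (LMP2; gene 16912, chromosome 17, 34182030 to 34187330), which replaces Psmb6 and lies near Psmb8 in the MHC region, had 149, 217 and 162 CPM in knockouts 1, 2 and 3, against 188, 189 and 174 CPM in controls 1, 2 and 3. Again knockout 2 was the highest of the 6 libraries and the other knockouts the lowest, and the log2 fold change was -0.06 (SE 0.14, adjusted p = 0.763 by edgeR). Psmb10 (MECL1; gene 19171, chromosome 8, 105935728 to 105938392), which replaces Psmb7, had 199, 309 and 222 CPM in the knockouts, against 229, 239 and 224 CPM in the controls. It showed the same order, with a log2 fold change of 0.08 (SE 0.16, adjusted p = 0.736 by edgeR). Psme1 and Psme2 encode the alpha and beta chains of PA28 and lie close together on chromosome 14 (gene 19186, chromosome 14, 55578494 to 55581527, and gene 19188, chromosome 14, 55587440 to 55591101).

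Psme1 had 301, 417 and 310.1 CPM in the knockouts, against 362, 382 and 366 CPM in the controls, and Psme2 had 415, 606 and 432 CPM in the knockouts, against 512, 533 and 533 CPM in the controls. In both genes knockout 2 lay above every control and the other knockouts below every control. The log2 fold changes were -0.11 (adjusted p = 0.535) for Psme1 and -0.12 (adjusted p = 0.56) for Psme2. For the 5 genes the 95% intervals reach at lowest down to -0.53 (Psmb8) and at highest up to 0.45 (Psmb10), so a difference of that size could not be told from 0 here.

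Leaving out knockout 2 changed this picture, and removing the library trends changed it in another way. Without knockout 2 all 5 fell, in a comparison in which 69.6% of 11793 tested genes were called and 35.0% fell. Psmb8 was then at -0.36 (adjusted p = 4.21e-07), Psmb9 at -0.24 (0.00014), Psmb10 at -0.13 (0.0195), Psme1 at -0.28 (5.35e-06) and Psme2 at -0.31 (6.92e-07). With the length and GC trends removed, 51.6% of all tested genes were called, 28.8% higher and 22.8% lower. There Psmb10 rose (0.18, adjusted p = 0.0184) and the other 4 were not called, at -0.02 for Psmb8, -0.02 for Psmb9, -0.02 for Psme1 and -0.01 for Psme2. Psmb10 was thus called in both of these fits, in opposite directions.

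Psme2b (gene 621823, chromosome 11, 48945345 to 48946410) is a near-identical copy of Psme2, and its counts are not whole numbers, so reads may have been split between them and both values are uncertain in that respect. It had 19, 5.87 and 20.5 CPM in knockouts 1, 2 and 3, against 10.1, 7.75 and 7.95 CPM in controls 1, 2 and 3. Here knockout 2 was the lowest library and knockouts 1 and 3 were the highest, the reverse of the order in Psme2. The log2 fold change of 0.81 had an SE of 0.42 and did not pass the test (adjusted p = 0.173), but without knockout 2 it did (1.19, adjusted p = 1.26e-10).

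The constitutive catalytic subunits were lower on average in the knockout, short of the threshold. By edgeR 0 of the 3 were called and by DESeq2 0. By edgeR 2 were at an unadjusted p under 0.05, as were 5395 of all 11656 genes tested. Limma on log2(TPM + 1) called Psmb5 and Psmb7 lower, in a fit that called 27.5% of 10866 genes (13.1% higher and 14.4% lower). Psmb5 (gene 19173, chromosome 14, 54614120 to 54617995) carries the chymotrypsin-like site and stood at 108, 175 and 119 CPM in knockouts 1, 2 and 3, against 179, 182 and 176 CPM in controls 1, 2 and 3. All knockouts lay below all controls, knockout 2 only just, and the log2 fold change was -0.42 (SE 0.17, adjusted p = 0.1 by edgeR). It fell without knockout 2 (-0.66, adjusted p = 1.07e-11) and in the fit without length and GC trends (-0.36, adjusted p = 0.000615).

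Psmb7 (gene 19177, chromosome 2, 38588046 to 38643952), with the trypsin-like site, had 211, 257 and 205 CPM in the knockouts, against 272, 269 and 259 CPM in the controls. The groups did not overlap, knockout 2 being close to the lowest control, and the log2 fold change was -0.25 (SE 0.10, adjusted p = 0.091 by edgeR). Psmb6 (gene 19175, chromosome 11, 70525324 to 70527858), with the caspase-like site, had 139, 224 and 152 CPM in the knockouts, against 186, 201 and 187 CPM in the controls. Knockout 2 exceeded every control, as in Psmb8, and the log2 fold change was -0.16 (SE 0.17, adjusted p = 0.506 by edgeR). Without knockout 2 both fell, Psmb6 by 0.40 and Psmb7 by 0.36 on the log2 scale, and with the trends removed neither was called (-0.04 and -0.13).

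**Figure D1:**
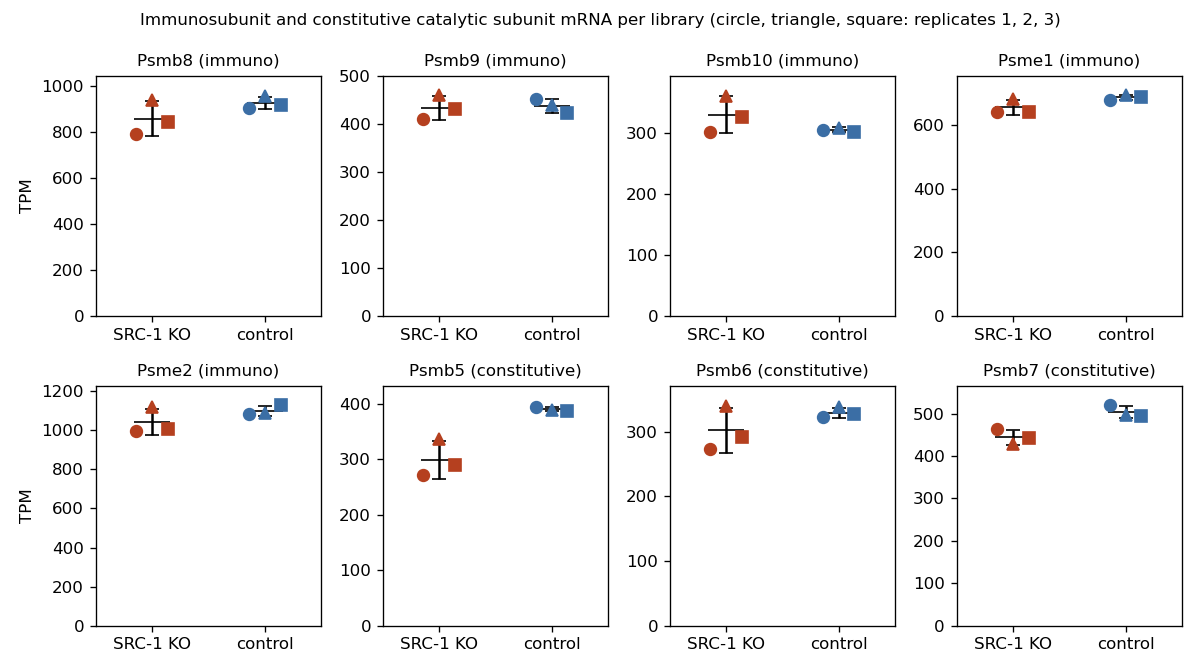
TPM of the 3 immunosubunits, the 2 PA28 genes and the 3 constitutive catalytic subunits in each library, SRC-1 knockout on the left and control on the right of each panel, with the mean and SD as bars (n = 3 per group). Knockout 2 (triangle) is the highest knockout in every panel except Psmb7, and in Psmb5 and Psmb7 all knockouts lie below all controls.

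The exchange partners were next set against each other within each library. The ratio of Psmb8 to Psmb5 in TPM was 2.92, 2.78 and 2.90 in knockouts 1, 2 and 3, against 2.29, 2.46 and 2.37 in controls 1, 2 and 3. Every knockout was above every control, knockout 2 included, and the log2 ratio was higher by 0.27 in the knockout. The ratio of Psmb10 to Psmb7 was 0.650, 0.843 and 0.737 in the knockouts, against 0.587, 0.619 and 0.608 in the controls. These groups did not overlap either, and the log2 ratio was higher by 0.29 in the knockout, with the widest spread among the knockouts.

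The ratio of Psmb9 to Psmb6 was 1.50, 1.36 and 1.48 in the knockouts, against 1.40, 1.30 and 1.29 in the controls. Knockout 2 lay below control 1, so these groups overlapped, and the log2 difference was 0.12. With 3 libraries against 3 the exact permutation test (two-sided) cannot go below p = 0.1. It gave exact p = 0.1 for Psmb8 over Psmb5 and for Psmb10 over Psmb7, and exact p = 0.2 for Psmb9 over Psmb6 (0.15, 0.15 and 0.2 after Benjamini-Hochberg adjustment over the 3 ratios). None of the 3 therefore passes a threshold of 0.05, which this design cannot reach.

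The 3 immunosubunits together held 59.9, 61.4 and 61.0% of the summed TPM of the 6 catalytic subunits in knockouts 1, 2 and 3, against 57.3, 58.2 and 57.6% in controls 1, 2 and 3. The mean share was 60.8 ± 0.809% in knockouts and 57.7 ± 0.452% in controls (SD, n = 3 each). Every knockout share exceeded every control share. The share is built from the same 6 genes as the ratios, and in CPM the groups did not overlap in 51.4% of all tested genes. The summed TPM of the immunosubunits was 1504, 1762 and 1601 in the knockouts, against 1663, 1706 and 1642 in the controls, and that of the constitutive subunits was 1008, 1106 and 1025 in the knockouts, against 1238, 1225 and 1210 in the controls. The sums of the immunosubunits overlapped between the groups, whereas those of the constitutive subunits did not.

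**Figure D2:**
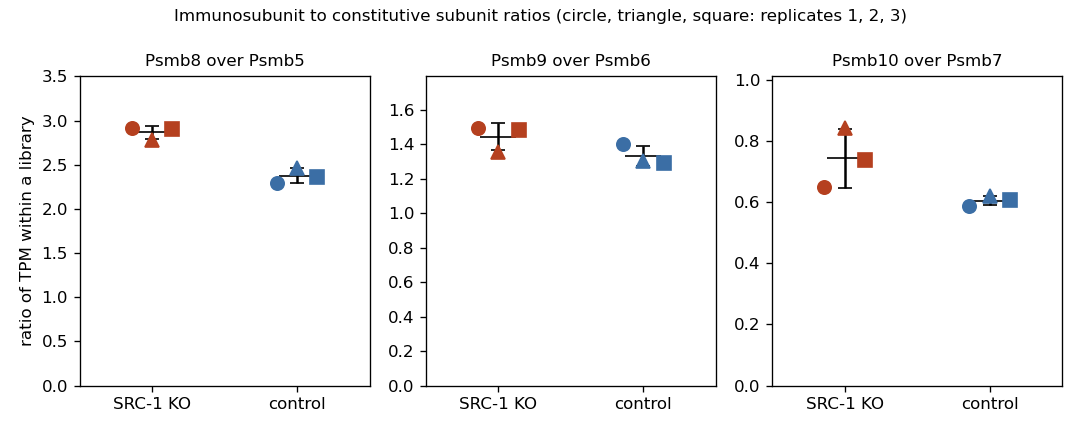
Ratio of TPM of each immunosubunit to the constitutive subunit it replaces, per library, SRC-1 knockout left of control, with mean and SD bars (n = 3 per group). The knockout points lie above all control points for Psmb8 over Psmb5 and for Psmb10 over Psmb7, while for Psmb9 over Psmb6 knockout 2 lies below control 1.

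The stretches before the start sites of 2 exchange pairs are shown, because Psmb8 and Psmb9 are induced by interferon gamma and replace Psmb5 and Psmb6. Each is the 150 bases before the start in the RefSeq promoter table of GRCm38.p6, read 5′ to 3′ on the gene's strand, with motif matches in capitals. For Psmb8 and Psmb6 the strand is plus, and for Psmb5 and Psmb9 minus. The windows lie at chr17:34198045-34198194 (Psmb8), chr14:54617996-54618145 (Psmb5), chr17:34187331-34187480 (Psmb9) and chr11:70525207-70525356 (Psmb6).
Psmb8: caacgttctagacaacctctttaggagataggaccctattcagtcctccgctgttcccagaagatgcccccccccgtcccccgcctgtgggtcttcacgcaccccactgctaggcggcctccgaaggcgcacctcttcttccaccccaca
Psmb5: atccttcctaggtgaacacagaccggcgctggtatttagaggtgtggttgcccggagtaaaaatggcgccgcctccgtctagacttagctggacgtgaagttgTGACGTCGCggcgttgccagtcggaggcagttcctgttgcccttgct
Psmb9: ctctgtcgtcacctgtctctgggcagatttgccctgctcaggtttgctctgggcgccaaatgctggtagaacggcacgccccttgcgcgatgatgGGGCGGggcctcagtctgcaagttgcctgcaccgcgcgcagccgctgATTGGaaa
Psmb6: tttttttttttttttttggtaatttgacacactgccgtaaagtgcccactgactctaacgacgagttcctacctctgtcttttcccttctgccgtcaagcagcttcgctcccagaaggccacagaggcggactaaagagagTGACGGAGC

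Of the 48 proteasome genes, 41 matched the promoter table, with 44 promoters between them, and 4 motifs were searched on both strands. A member was counted if any of its promoters held the motif, whereas the percentages are over single promoters, so the units differ. The form GAAANNGAAA, bound by interferon regulatory factors, was found in 1 of the 41 members, Psmd4, and in 1.59% of all 32851 promoters of the table. The letters TGACNNNGC, the form of the antioxidant element through which NRF1 raises proteasome genes, were found in 3 members (Psmb5 at -47 to -39, Psmb6 at -9 to -1, and Psmd9) and in 6.80% of promoters. The general elements CCAAT (10 members, 24.5% of promoters) and GGGCGG (19 members, 28.6% of promoters) account for the capitals in Psmb9, where CCAAT reads ATTGG on the shown strand. The Psmb8 window holds none of the 4. These are matches of letters in a short window, and say nothing of whether a factor binds.

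Across all tested members, 12 of 47 were called (25.5%), against 35.7% of all tested genes. Of these, 3 rose (17.1% of all genes did) and 9 fell (18.5% of all genes did). The median log2 fold change was -0.06 over the members and 0.02 over all tested genes. DESeq2 called 14 of 47 (4 higher and 10 lower), against 38.4% of all genes (18.7% higher and 19.6% lower), adding Psma2 and Psmf1 to the same 12. All knockouts lay above all controls in CPM in 8 members (24.8% of all genes) and below them in 12 (26.5% of all genes), so that the groups did not overlap in 42.6% of members, against 51.4% of genes.

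**Figure D3:**
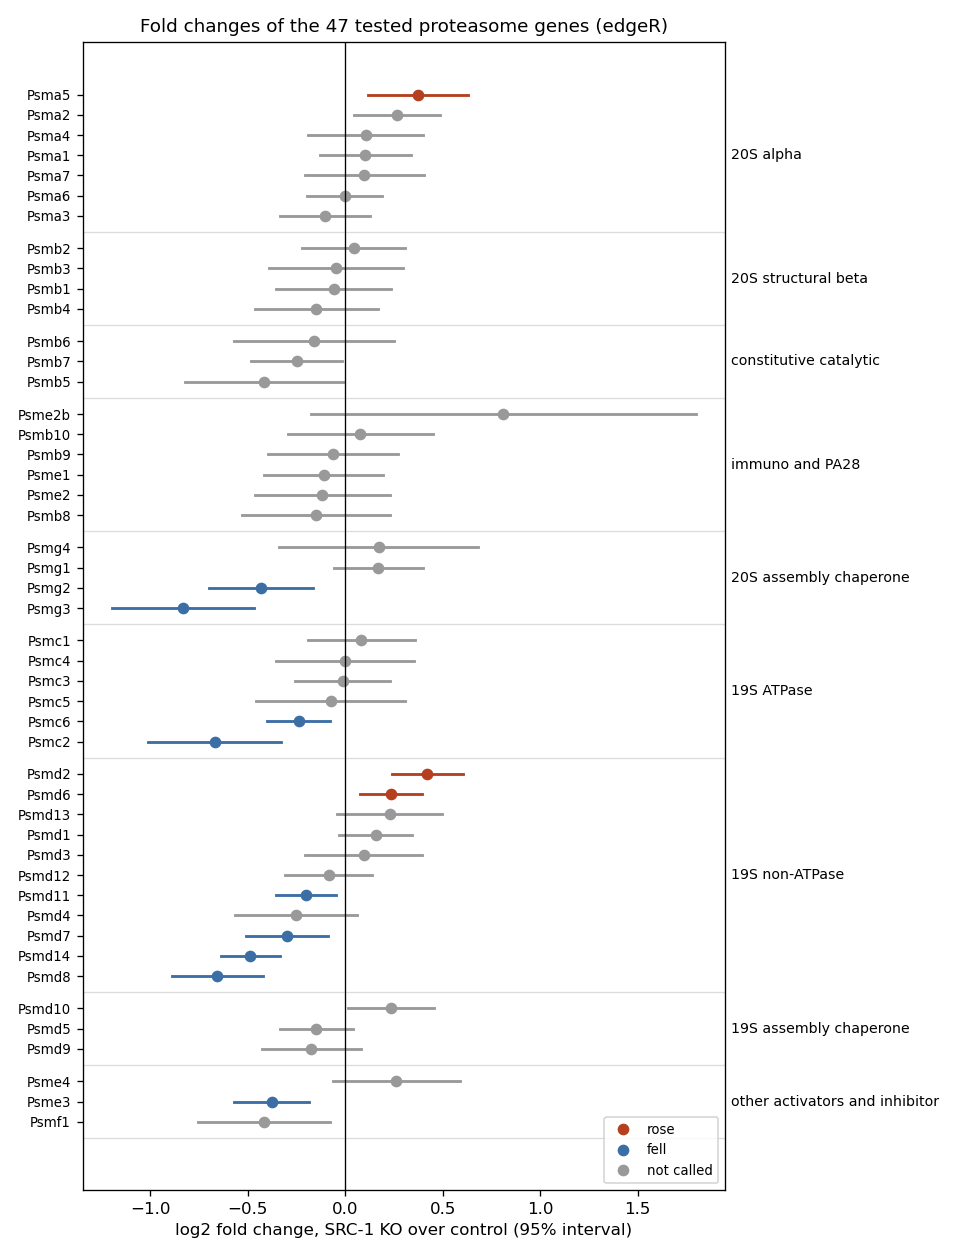
Log2 fold change, SRC-1 knockout over control, of the 47 tested proteasome genes by role, with 95% intervals from edgeR's fit, for genes that rose, fell or were not called. The 3 genes that rose are Psma5, Psmd2 and Psmd6, the 9 that fell include the ATPase Psmc2 and the chaperone Psmg3, and all immunosubunits are among those not called.

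In the alpha ring of the 20S core, 1 of 7 subunits rose, 0 fell, and the median log2 fold change was 0.10. In the same fit 17.1% of all tested genes rose and 18.5% fell. Psma5 (gene 26442, chromosome 3, 108256926 to 108279952) had 269, 341 and 269 CPM in knockouts 1, 2 and 3, against 236, 219.9 and 221 CPM in controls 1, 2 and 3. Every knockout was above every control, and the gene was 1.3-fold higher (log2 fold change 0.38, SE 0.11, adjusted p = 0.0339 by edgeR). Leaving out any 1 control ended the call, with an adjusted p of 0.0857 without control 1, 0.126 without control 2 and 0.123 without control 3. Psma2 had 163, 198 and 167 CPM in the knockouts, against 150.3, 148 and 140.0 CPM in the controls, with no overlap and an adjusted p of 0.0628 (0.27). With the length and GC trends removed, 6 of the 7 alpha subunits rose (Psma3 was not called), in a fit in which 28.8% of all genes did. Without knockout 2, where 34.6% of all genes rose and 35.0% fell, Psma5 and Psma2 rose and Psma3 fell.

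Among the 4 structural beta subunits, which carry no active site, 0 were called by edgeR, with 0 at an unadjusted p under 0.05 and 0 by DESeq2. Psmb4 had the smallest p, at 244, 346 and 258 CPM in the knockouts, against 319, 314 and 307 CPM in the controls. Knockout 2 was the highest library and the other knockouts the lowest, and the log2 fold change was -0.15 (adjusted p = 0.415 by edgeR). Without knockout 2, 3 of the 4 fell, as did 35.0% of all genes.

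In the ring of 6 ATPases that unfolds the substrate, 2 fell and 0 rose, where 18.5% of all tested genes fell and 17.1% rose. Psmc2 (gene 19181, chromosome 5, 21785275 to 21803787) had 102, 151 and 112 CPM in knockouts 1, 2 and 3, against 187, 201 and 193 CPM in controls 1, 2 and 3. All knockouts were below all controls, and the gene was 1.59-fold lower (log2 fold change -0.67, SE 0.14, adjusted p = 0.0112 by edgeR). The call was lost by a small margin without control 2 (adjusted p = 0.0501) and held in the other 5 fits that left out 1 library. Psmc6 had 130.0, 138 and 138 CPM in the knockouts, against 164, 161 and 155 CPM in the controls, with little spread in either group. It was 1.18-fold lower (log2 fold change -0.24, adjusted p = 0.032 by edgeR), was not called when any library other than knockout 2 was left out (adjusted p up to 0.123), and was not called with the trends removed (-0.07, adjusted p = 0.438).

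Set side by side in TPM, the 6 ran between 139.5 (Psmc2) and 267 (Psmc4) in the knockouts, and between 164 (Psmc6) and 275 (Psmc5) in the controls. Psmc2, at 139.5 ± 9.25 TPM in the knockouts and 216 ± 4.9 TPM in the controls (SD, n = 3 each), had the lowest mean of the 6 in the knockouts and not in the controls. That low place was shared with Psmc6 within the spread (145 ± 17.8 TPM in the knockouts), which was the lower of the pair in knockout 2, and the highest, Psmc4, was likewise level with Psmc5 in the knockouts.

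The 11 non-ATPase subunits of the 19S particle with Psmd symbols moved both ways, with 2 risen, 4 fallen and a median of -0.09. Of all tested genes, 17.1% rose and 18.5% fell. Psmd2 (gene 21762, chromosome 16, 20651122 to 20663414), the large scaffold on which shuttle factors dock, had 410.2, 462 and 413 CPM in knockouts 1, 2 and 3, against 313, 319 and 329 CPM in controls 1, 2 and 3. The groups were well apart, and the gene was 1.34-fold higher (log2 fold change 0.42, SE 0.077, adjusted p = 0.00556 by edgeR). Psmd6, a lid subunit, had 90.9, 94.5 and 89 CPM in the knockouts, against 77.5, 76.7 and 79 CPM in the controls. It was 1.18-fold higher (log2 fold change 0.23, adjusted p = 0.0333 by edgeR), but kept its call only when knockout 2 was the library left out (adjusted p up to 0.142 otherwise).

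Psmd14 (gene 59029, chromosome 2, 61711694 to 61800376) encodes the deubiquitinase that cuts the ubiquitin chain off the substrate. It had 127, 132 and 129.7 CPM in knockouts 1, 2 and 3, against 181, 186 and 179 CPM in controls 1, 2 and 3. Within each group the libraries differed little, and the gene was 1.4-fold lower (log2 fold change -0.49, SE 0.065, adjusted p = 0.0014 by edgeR). Psmd8 (gene 57296, chromosome 7, 29174187 to 29180673), the lid subunit that joins last, had 371, 456 and 377 CPM in the knockouts, against 616, 658 and 624 CPM in the controls. It was 1.58-fold lower (log2 fold change -0.66, SE 0.099, adjusted p = 0.00256 by edgeR). It had the most TPM of the 19S subunits with Psm symbols, at 444 ± 13.3 in the knockouts and 675 ± 11.8 in the controls (SD, n = 3 each), while Sem1, a small lid subunit with another symbol, was at 569.5 ± 10.5 TPM in the knockouts and 538 ± 33.5 TPM in the controls (SD, n = 3 each).

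Psmd7, the partner of Psmd14 in the lid, had 184, 222 and 187 CPM in the knockouts, against 239.7, 246 and 243 CPM in the controls, and was 1.23-fold lower (adjusted p = 0.0374 by edgeR). Psmd11, which clamps lid and core together, had 140.0, 144 and 137 CPM in the knockouts, against 157, 163 and 164 CPM in the controls, and was 1.15-fold lower (adjusted p = 0.0481 by edgeR). Neither kept its call when a library other than knockout 2 was left out (adjusted p up to 0.129 for Psmd7 and 0.181 for Psmd11), nor with the trends removed (-0.11 and -0.09). Between the highest (Psmd8) and the lowest (Psmd13) of the non-ATPase subunits in the controls, mean TPM differed 4.15-fold in the knockouts and 7.64-fold in the controls.

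Of the 4 chaperones that assemble the 20S core, 2 fell and 0 rose, where 18.5% of all tested genes fell and 17.1% rose. Psmg3 (gene 66506, chromosome 5, 139823613 to 139826894), which helps to build the alpha ring, had 9.93, 15.3 and 12.4 CPM in knockouts 1, 2 and 3, against 23.4, 22.4 and 21.3 CPM in controls 1, 2 and 3. It was 1.78-fold lower, the largest fall among the members called (log2 fold change -0.83, SE 0.15, adjusted p = 0.00612 by edgeR). Psmg2, which pairs with Psmg1 in another chaperone, had 24.8, 32.6 and 27.3 CPM in the knockouts, against 38.8, 37.7 and 37.9 CPM in the controls, and was 1.35-fold lower (log2 fold change -0.43, adjusted p = 0.0227 by edgeR). Its call was kept without knockout 2 and lost without any other library (adjusted p up to 0.0817). Their partners were not called, Psmg4 at 0.17 (adjusted p = 0.569) and Psmg1 at 0.17 (adjusted p = 0.213).

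Of the 3 chaperones of the 19S base, Psmd5, Psmd9 and Psmd10, 0 were called by edgeR or DESeq2 (1 and 0 at an unadjusted p under 0.05). Psmd10 (gankyrin) had 14.7, 15.3 and 15.7 CPM in the knockouts, against 13.8, 12.1 and 12.9 CPM in the controls, with every knockout above every control and an adjusted p of 0.0895 (0.23). Among the other activators and the inhibitor, Psme3 (gene 19192, chromosome 11, 101316213 to 101323537), the nuclear PA28 gamma, had 275, 313 and 269 CPM in the knockouts, against 357, 377 and 379.5 CPM in the controls. It was 1.3-fold lower (log2 fold change -0.38, SE 0.083, adjusted p = 0.0114 by edgeR) and lost its call without control 2, control 3 or knockout 3 (adjusted p up to 0.0601). Psme4 (PA200, 0.26, adjusted p = 0.183) and Psmf1 (PI31, -0.42, adjusted p = 0.0596) were not called. Psmb11, the catalytic subunit of thymic epithelium, was at 0.12, 0 and 0.117 CPM in the knockouts and 0.0583, 0 and 0 CPM in the controls and was not tested. A count of 0 allows a level of up to 0.182 CPM in knockout 2 and 0.178 CPM in controls 2 and 3 (3 counts per library, counting error only).

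Psmd2, Psmd14, Psmd8 and Psmg3 kept their call and direction whichever library was left out, and also with the length and GC trends removed. Single fits that left out 1 library called 20.4 to 69.6% of all tested genes. The share of all genes called in every one of these fits is not given here. Over the 6 fits that left out 1 library, the log2 fold change was 0.36 to 0.45 for Psmd2 and -0.50 to -0.47 for Psmd14. For Psmd8 it was -0.76 to -0.60 and for Psmg3 -0.997 to -0.69. With the trends removed the 4 stood at 0.49 (Psmd2), -0.27 (Psmd14), -0.52 (Psmd8) and -0.71 (Psmg3). The 150 bases before their starts are shown because these 4 kept their call in all of these fits. Their log2 fold changes were not the least variable ones: Psmd11, for instance, ran between -0.23 and -0.19 over the fits that left out 1 library.
Psmd2: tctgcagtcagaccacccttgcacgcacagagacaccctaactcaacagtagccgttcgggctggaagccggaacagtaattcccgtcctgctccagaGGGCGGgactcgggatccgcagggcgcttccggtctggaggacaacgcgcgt
Psmd14: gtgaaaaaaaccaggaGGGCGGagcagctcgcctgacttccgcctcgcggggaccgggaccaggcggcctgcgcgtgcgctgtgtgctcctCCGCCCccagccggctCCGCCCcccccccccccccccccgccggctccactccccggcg
Psmd8: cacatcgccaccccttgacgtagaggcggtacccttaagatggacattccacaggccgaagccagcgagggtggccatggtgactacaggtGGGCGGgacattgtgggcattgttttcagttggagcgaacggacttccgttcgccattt
Psmg3: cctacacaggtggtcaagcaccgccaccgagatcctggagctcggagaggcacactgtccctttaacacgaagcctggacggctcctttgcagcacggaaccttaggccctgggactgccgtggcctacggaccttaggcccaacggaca
They come from the same RefSeq table of GRCm38.p6, at chr16:20651502-20651651 on the plus strand (Psmd2), chr2:61711544-61711693 on the plus strand (Psmd14), chr7:29180674-29180823 on the minus strand (Psmd8) and chr5:139826895-139827044 on the minus strand (Psmg3). Capitals mark GGGCGG on either strand, present once in Psmd2 and Psmd8, 3 times in Psmd14 and not in the Psmg3 window, which holds none of the 4 motifs either. For Psmd2, as for Psmb6, the start in the promoter table lies inside the outer bounds of the gene.

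The spread among the knockouts followed the same course in most members. Knockout 2 was above both other knockouts in 43 of 47 members (91.5%), against 47.6% of all tested genes. The median gap, knockout 2 minus the mean of knockouts 1 and 3 in log2 CPM, was 0.34 over the members and 0.02 over all tested genes. It was largest in Psmg4 (0.74), and below 0 in Psme2b (-1.67) and Psme4 (-0.50). In 31 members (66.0%) knockouts 1 and 3 both lay below all controls, against 40.0% of all tested genes. In 19 of these 31 (61.3%) knockout 2 was at or above the lowest control, against 33.7% of the 4662 genes with that order.

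Proteasome transcripts are short. The median longest transcript was 1883 bases over the tested members and 3442 over all tested genes, and their GC content was alike at 49.7% and 49.6%. When the tested genes were divided by length into 3 groups of 3807, 35 members were in the shortest group (up to 2682 bases), 10 in the middle one (up to 4319 bases) and 2 in the longest. The median gap of knockout 2 was 0.30 over all genes of the shortest group, 0.01 over the middle one and -0.28 over the longest. Single members varied around this: of the 2 in the longest group, Psme4 (6491 bases) had a gap of -0.50 and Psmd5 (4397 bases) one of 0.17, and Psme2b, with the lowest gap, has 837 bases. The part of this length trend in the members' fold changes was not tested beyond the fit with the trends removed.

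**Figure D4:**
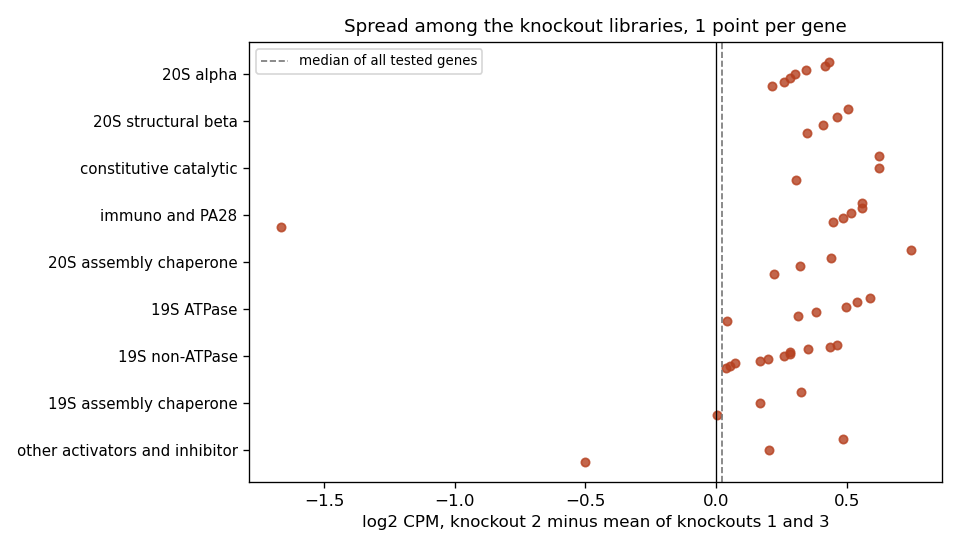
Gap in log2 CPM between knockout 2 and the mean of knockouts 1 and 3, 1 point per tested proteasome gene, by role, with the median of all tested genes (0.02) as a dashed line. Nearly all points lie to the right of it, and the exceptions far to the left are Psme2b (-1.67) and Psme4 (-0.50).

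Without knockout 2, 36 of 47 members were called (7 rose and 29 fell), against 69.6% of all tested genes, 34.6% higher and 35.0% lower. With the length and GC trends removed, 23 of 47 were called (16 rose and 7 fell), against 51.6% of all genes, 28.8% higher and 22.8% lower. The median over the members was -0.21 without knockout 2 and 0.09 with the trends removed, and over all genes -0.0034 and 0.05. The sign differed between these 2 fits in 15 members. All 12 members called with all 6 libraries were called in the same direction without knockout 2. With the trends removed, 9 of them were: Psma5, Psmd2 and Psmd6 higher, and Psmc2, Psmd8, Psmd14, Psme3, Psmg2 and Psmg3 lower.

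**Figure D5:**
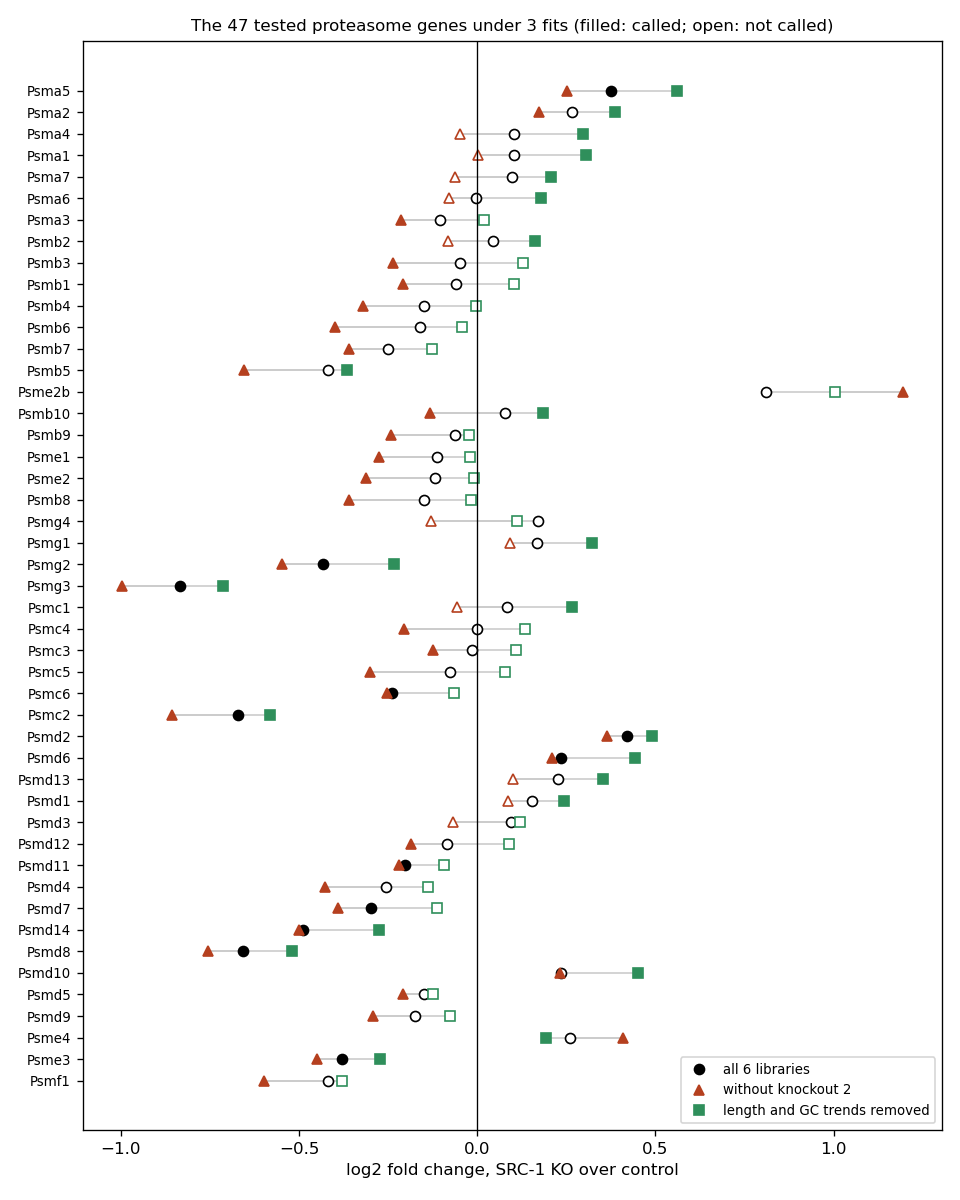
Log2 fold change, SRC-1 knockout over control, of each tested proteasome gene with all 6 libraries (circles), without knockout 2 (triangles) and after removal of length and GC trends (squares), filled where called. For most genes the triangle lies to the left of the circle and the square to its right. Psmd2, Psmd14, Psmd8 and Psmg3 are among the 9 genes filled on the same side of 0 in all 3 fits.

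Genes that act on or beside the proteasome but have other symbols were read from the same fit. Of 18 such genes in the table, 1 rose and 3 fell, with a median of -0.10. In this fit, from which the lists that follow were read too, 17.1% of all tested genes rose and 18.5% fell. Zfand5, which binds proteasomes and stimulates them, had 270.2, 210.1 and 264 CPM in the knockouts, against 177, 170.2 and 166 CPM in the controls, and rose (log2 fold change 0.54, adjusted p = 0.00798 by edgeR). Uchl5, a deubiquitinase of the 19S particle, had 34.9, 40.9 and 36.8 CPM in the knockouts, against 60.2, 58 and 58.5 CPM in the controls, and fell (-0.65, adjusted p = 0.0014). Akirin2, which serves the nuclear import of proteasomes, also fell (-0.47, adjusted p = 0.00305). These 3 kept their calls whichever library was left out, and with the trends removed Zfand5 (0.47) and Uchl5 (-0.45) were called and Akirin2 was not (adjusted p = 0.0555). Pomp, the maturation factor of the core, had 107, 147 and 107 CPM in the knockouts, against 104, 102 and 95 CPM in the controls, and was not called (0.26, adjusted p = 0.173).

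NRF1, the product of Nfe2l1, raises proteasome genes when the proteasome is inhibited. Of 8 tested genes of this route, 1 rose and 3 fell. Nfe2l1 had 505, 435 and 504 CPM in knockouts 1, 2 and 3, against 682, 749.9 and 735 CPM in controls 1, 2 and 3. The groups were far apart, and the gene was 1.5-fold lower (log2 fold change -0.58, SE 0.091, adjusted p = 0.00269 by edgeR), at -0.52 without knockout 2 and -0.64 with the trends removed. The small Maf genes Maff (-0.77, adjusted p = 0.000732) and Mafk (-0.70, adjusted p = 0.000778), whose products pair with NRF1, also fell, and both fell in these other fits as well. Vcp, the ATPase that pulls NRF1 from the endoplasmic reticulum, rose (0.39, adjusted p = 0.00669), with an adjusted p of 0.0502 without control 3. The related Nfe2l2 was not called (0.02, adjusted p = 0.902 by edgeR). Without knockout 2 Nfe2l2 was called higher (0.11, adjusted p = 0.0394), and with the trends removed it was not called (0.16, adjusted p = 0.161).

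Of 5 tested genes of the interferon route to the immunosubunits, 1 rose and 1 fell. Irf1, a transcription factor that acts on the immunosubunit genes, had 611, 727 and 634 CPM in knockouts 1, 2 and 3, against 1106, 1173 and 1119 CPM in controls 1, 2 and 3. It was 1.72-fold lower (log2 fold change -0.79, SE 0.092, adjusted p = 0.000882 by edgeR), without overlap, and stood at -0.86 without knockout 2 and -0.66 with the trends removed. Socs1, a feedback inhibitor of the interferon signal, rose (0.62, adjusted p = 0.00477), and did so in both of those fits (0.52 and 0.62). Nlrc5, the activator of MHC class I genes, was not called (0.02, adjusted p = 0.889), and only without knockout 2 was it higher (0.13, adjusted p = 0.0119).

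Of 8 genes that act with the immunoproteasome in class I presentation, 3 rose and 0 fell. Tapbp (tapasin, 0.47, adjusted p = 0.00343), Ubd (the ubiquitin-like modifier FAT10, 0.72, adjusted p = 0.0106) and Erap1 (a peptide-trimming aminopeptidase, 0.53, adjusted p = 0.0196) rose. All 3 also rose without knockout 2 and with the trends removed. Erap1 kept its call only when knockout 2 was the library left out, and Ubd was not called without control 1 (adjusted p = 0.0537). Tap1, which pumps peptides and lies between Psmb9 and Psmb8, had 442, 597 and 457 CPM in the knockouts, against 624, 686 and 639 CPM in the controls, below every control in every knockout but just short of the threshold (-0.38, adjusted p = 0.0523). It fell without knockout 2 (-0.53) and with the trends removed (-0.42, adjusted p = 0.00514). Tap2, its partner, was not called (0.05, adjusted p = 0.778). Of 7 genes of ubiquitin supply, 0 were called by edgeR or DESeq2 (0 and 1 at an unadjusted p under 0.05), and the smallest p was that of Rps27a (-0.35, adjusted p = 0.117).

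As a description over the 6 libraries, with no test, the gene whose log2 CPM was most like that of Psmb8 was Psmb6 (Pearson r 0.999), followed by Coasy and Ddx41 (r 0.998 each). Psmb9 ranked 311 in likeness to Psmb8 (r 0.962) and Psmb10 ranked 1372 (r 0.847). Psmb9 was most like Siva1 and Hacd2 (r 0.996 each) and Psmb10 was most like Elof1 (r 0.998). These points share the group difference and the gap of knockout 2, and in likeness to any of the 3 immunosubunits the nearest other one ranked 184 or lower.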

How the data were processed

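RNA sequencing libraries of 6 samples were compared, 3 SRC-1 knockout and 3 control, grouped by sample title. The deposited table gives per gene and sample, per the file headers, read counts, FPKM and TPM. Of the deposited counts 88.9% are whole exactly as written, with no tolerance, so they are expected counts, and they were rounded. The authors made the FPKM and TPM values, and their program is not given in the sources here. HISAT2, StringTie, SAMtools and GRCm38.p6 are named in the submitters' processing notes. The library kit is not stated to mark strand. Group averages in the table were not used.

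Genes were kept by filterByExpr (minimum count 10, minimum total 15), scaled by TMM and tested with edgeR 4.0.16 (robust quasi-likelihood, two-sided, Benjamini-Hochberg, threshold 0.05) in R 4.3.3, after a check on simulated data. Alternatives were DESeq2 1.42.0, limma 3.58.1 on log2(TPM + 1), log2(TPM + 0.1) or log2(FPKM + 1), RLE and upper-quartile scaling, other filters, a replicate block, each library left out, and removal of length and GC trends (mgcv 1.9.3, longest GENCODE M21 transcript, known for 98.0% of tested genes). Log2 CPM used a pseudocount of 0.5. Immunosubunit ratios were tested by exact permutation. Depth was 16329459 to 17207625 counts per library, which leaves little counting error for members. Coordinates and promoters are RefSeq's for GRCm38.p6, 1-based, and all 48 symbols matched. No 2 libraries of the same group were duplicates (chi-square per degree of freedom 2.28 to 59.8). That check does not tell whether replicates came from separate cultures.

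The members, the lists and the rule for named genes were chosen with earlier results of these data known. The rule names the immunosubunits, their constitutive counterparts and the regulators and partners described, and from each role up to 3 called members per direction with the smallest p, or the smallest p where none is called. Psma2, Psmd11, Psmg1, Psmg4, Psme4, Psmf1 and other members beyond it were named after their values were seen. Some genes of the lists are counted but not reported by name here.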

Additional observations from a re-analysis of the deposited data

How the results depend on the processing

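The count of called members was 12 (3 higher and 9 lower), and 4157 of all genes (1999 higher and 2158 lower). Leaving out 1 library at a time gave 4 to 36 called members (1 to 7 higher, 3 to 29 lower) and 2406 to 8208 called genes (1036 to 4075 higher, 1358 to 4133 lower). The highest values are those without knockout 2, and the lowest count of members is that without control 2. With length and GC trends removed, 23 members were called (16 higher) and 3355 genes were higher. With a replicate block and the trends removed together, 24 members were called (16 higher) and 3372 genes were higher. The replicate block alone gave 11 called members (2 higher, 9 lower) and 4337 genes. The labels do not say that the replicate numbers pair the samples. Deviations from the group mean correlated at 0.161, 0.261 and 0.040 between same-numbered libraries. Between differently numbered ones they correlated at -0.226 to 0.186. With 3 libraries per group these values cannot decide whether the samples are paired. Psma6 was near 0 in the main fit (-0.0042), and at 0.18 both with the trends removed and with block and trends together. Log2 fold changes were above 0 in 18 members in the main fit and in 26 with the trends removed. Psmb10 ran between -0.13 (without knockout 2) and 0.20 (without knockout 1). The cause was not tested. The 3 ratios and the catalytic share kept their direction under FPKM, CPM, added pseudocounts and each library left out. RLE and upper-quartile scaling, the other filters, DESeq2 and limma left the count of called members within 1.5 times. The filter on low counts kept Psmb11 from being tested, and the other members had 97.15 or more counts in each library.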
